A study of Rattus norvegicus with 2 samples.

Results

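Amino acid transporters and the enzymes of serine synthesis were examined in rat oligodendrocyte precursor cells (OPCs), which divide and mature into the myelin-forming glia of the brain. The members were chosen by gene symbol, with earlier results of these data known. The rule took the Slc1a4 to Slc1a7 carriers, the Slc3, Slc6, Slc7 (without Slc7a11), Slc36, Slc38 and Slc43 families, and 12 enzymes and stress regulators. Of the 17455 genes in the deposited table, 57 met this rule, 45 of them transporters. The study compared wild type OPCs transfected with an empty vector (labelled control) with wild type OPCs transfected with Slit1, a secreted ligand of Robo receptors, by RNA sequencing. Each group had 1 library, called vector and Slit1 here. Neither the age of the animals, nor the number of cultures behind a library, nor the time from transfection to harvest was known. The labels do not say whether a library pools animals.

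With 1 library per group no difference has a replicate check, and no p-value was computed. Levels are in TPM, transcript abundances that sum to 1000000 in each library, which are scaled to gene length and can be compared between genes. Each TPM ratio, Slit1 over vector, is given with an exact 95% interval that covers counting error only and says nothing of the spread between cultures. Differences are of log2(TPM + 1), Slit1 minus vector. Genes were tested where the mean of both libraries was at least 1 TPM, which 42 of the 57 members reached, among 13175 genes in all. A gene is called higher or lower where it differed at least 1.5-fold on that scale. Of a single gene, higher and lower otherwise give only the direction between the 2 libraries.

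Depth was similar, at 18817462 estimated counts for vector and 18998770 for Slit1. The transfected gene, Slit1, measured 1.70 TPM in the vector library and 229.7 TPM in the Slit1 library, in the direction of the labels; reads of the construct and of the chromosomal gene cannot be told apart. Of 6 OPC markers, all were detected in both libraries, with summed levels of 1937 TPM in the vector library and 1822 TPM in the Slit1 library. Of these, 4 were above 0 and Sox10, a factor shared with oligodendrocytes, was called higher (71.4 and 218 TPM), while Ptprz1 (914 and 688 TPM) lowered the sum. Astrocyte markers were abundant too. All 9 were detected, with summed levels of 7639 TPM in the vector library and 8597 TPM in the Slit1 library. The higher sum came from Gfap (4694 and 6130 TPM), while 5 of the 8 tested were below 0. Gjb6 stood at 1 count in each. All 10 markers of newly formed and myelinating oligodendrocytes were called higher in Slit1, with summed levels of 1292 and 5010 TPM. Of these, Mog (0.15 and 1.93 TPM) reached a mean of 1 TPM only through Slit1, and in CPM, in FPKM and with edgeR TMM factors 9 were tested and called. The 5 microglial markers in the table summed to 1.11 and 1.42 TPM, and Itgam was at 0 in vector. Neuronal markers (11) summed to 73.8 and 82.0 TPM, with Slc17a6 and Slc17a7 at 0 in Slit1. The higher sum came from Tubb3 (33.6 and 46.5 TPM). Of the 9 tested neuronal markers 6 were below 0, with a median of -0.33, and 2 were called lower, Nefl (30.0 and 12 counts) and Gad2 (56 and 33 counts). In CPM 1 was called, and in FPKM 0. Over all tested genes, 4.84% were called lower and 3.74% higher in TPM. Endothelial markers (5) summed to 5.03 and 2.83 TPM, pericyte and fibroblast markers (4) to 22.6 and 21.8 TPM, and Schwann cell markers (3) to 59.6 and 37.6 TPM. Several members are known to be expressed in astrocytes as well as OPCs, and the part of other cells in their levels was not tested. In bulk RNA, fewer cells of a type and less RNA per cell cannot be told apart.

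As background, cells take up amino acids through families of carriers that differ in substrate and in coupling to sodium, protons or exchange. Serine is also made inside the cell, from the glycolytic intermediate phosphoglycerate, by Phgdh, Psat1 and Psph in turn, and its carbon then feeds the folate pool of the mitochondrion. When amino acids run short, or other stresses lead to phosphorylation of the initiation factor eIF2, the transcription factor ATF4 is translated and induces many of these carriers and enzymes through composite C/EBP-ATF response elements. In the oligodendrocyte lineage, carriers of glutamine, branched-chain amino acids, glycine, GABA and creatine serve growth, membrane synthesis and exchange with neurons.

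The letters of that response element were looked for in RefSeq promoter windows (build GRCr8) of 300 bases, 250 before to 50 after each annotated start. The motif searched was TGATGNAA on both strands. Windows were found for 44 of the 57 members, and 6 of these genes held it: Chac1, Pck2, Slc1a4, Slc38a1, Slc7a1 and Trib3. These were 13.3% of the members' 45 windows, 1 gene having 2. Over all 33469 windows the share was 3.98%. Over the 12277 windows of genes in the table with a mean of at least 1 TPM it was 2.11%, and over the 33 windows of tested members 18.2%. The list of members holds known ATF4 targets such as Trib3, Chac1 and Asns. The difference between these shares may thus follow from the choice of list, and it is not read as a result. The table of windows had entries for 32 of the 42 tested members, and these include all 6. A match is a description of the letters and not a site of binding. The stretches of 100 bases that hold the matches are printed 5′ to 3′ on the gene's strand, because Chac1 and Trib3 are well-known ATF4 targets, with the motif or its reverse complement in capitals.
Chac1, chr3:126795918-126796017, plus strand: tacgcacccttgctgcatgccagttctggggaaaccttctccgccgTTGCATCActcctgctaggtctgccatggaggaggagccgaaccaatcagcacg
Pck2, chr15:32997603-32997702, plus strand: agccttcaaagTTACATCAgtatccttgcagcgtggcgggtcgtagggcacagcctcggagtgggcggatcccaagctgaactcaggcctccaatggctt
Slc1a4, chr14:98761713-98761812, minus strand: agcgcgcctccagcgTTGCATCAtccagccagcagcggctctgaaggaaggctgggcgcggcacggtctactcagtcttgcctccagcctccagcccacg
Slc38a1, chr7:129681490-129681589, minus strand: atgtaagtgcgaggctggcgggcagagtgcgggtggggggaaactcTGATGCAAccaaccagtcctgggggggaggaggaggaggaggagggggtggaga
Slc7a1, chr12:11664388-11664487, plus strand: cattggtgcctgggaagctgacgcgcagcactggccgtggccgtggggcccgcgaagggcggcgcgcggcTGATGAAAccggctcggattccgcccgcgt
Trib3, chr3:161275534-161275633, minus strand: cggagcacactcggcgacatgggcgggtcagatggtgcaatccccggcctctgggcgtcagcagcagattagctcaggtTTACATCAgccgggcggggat

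The matches began between 21 bases (Trib3) and 239 bases (Pck2) upstream of the annotated start. Chac1 and Slc1a4 carried the same letters, TTGCATCA, and Slc38a1 carried their reverse complement. Pck2 and Trib3 carried TTACATCA, and Slc7a1 was alone in holding TGATGAAA. The TPM ratios of these 6 genes ranged from 0.553 (Trib3) to 0.945 (Slc7a1), and the intervals of Chac1 and Slc7a1 held 1. In TPM 28 of the 42 tested members and 7383 of all 13175 tested genes were below 0 as well. A link between the motif and the ratios was not tested. The median GC content of the windows was 61.7% for the tested members, 54.0% for the members below 1 TPM and 60.3% for all tested genes in the table.

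Across the 42 tested members, 0 were called higher and 3 were called lower in Slit1. The called members were Slc6a9, Cth and Trib3, and they made up 7.14% of the members tested. Over all tested genes, 3.74% were called higher and 4.84% lower by the same rule, so the share of lower members stood near the background. At a limit of 2-fold no member was called in either direction, beside 1.24% and 0.645% of all genes. At 1.25-fold, a limit chosen after seeing the data, 4 members were past it upward (9.52%) and 11 downward (26.2%), beside 10.7% and 17.9% of all genes. With edgeR TMM factors in place of TPM, which let 43 members be tested, 6 were past that limit upward and 8 downward (18.6%), beside 13.0% and 13.9% of all genes. The median difference of the members was -0.12, and that of all tested genes was -0.05. The counting interval of the TPM ratio lay wholly above 1 for 9 members (21.4%, beside 22.3% of all genes) and wholly below 1 for 19 (45.2%, beside 33.5%).

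**Figure D1:**
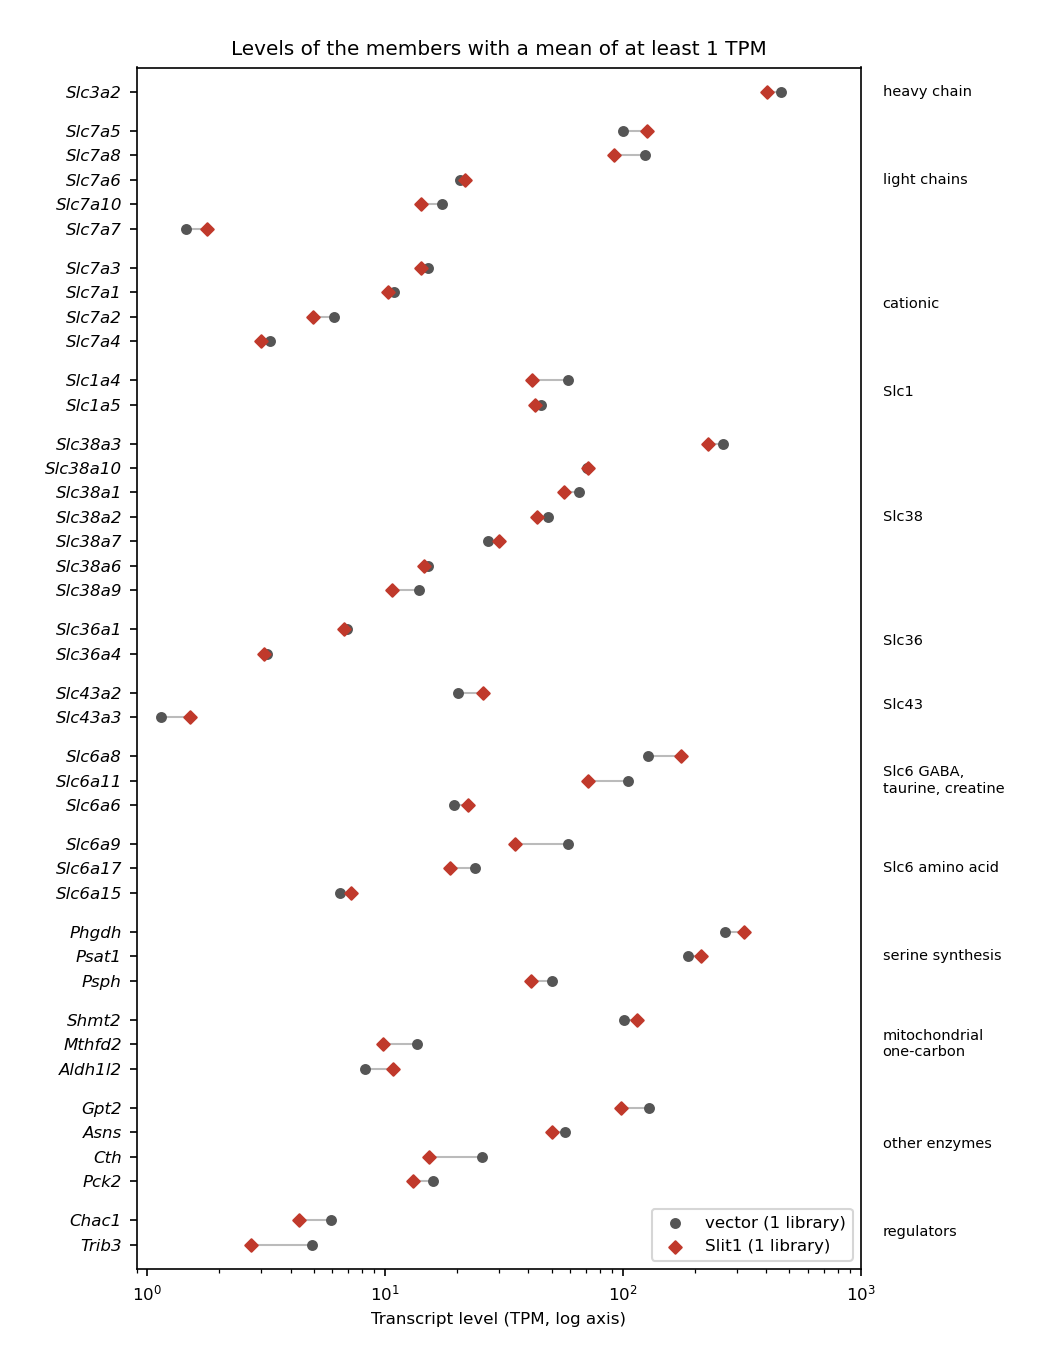
Transcript level in TPM (horizontal log axis) of 41 members with a mean of at least 1 TPM, grouped by role, in the vector library (grey circles) and the Slit1 library (red diamonds), 1 library each. Slc3a2, Phgdh, Slc38a3 and Psat1 are the most abundant in both libraries, and most pairs of symbols lie close together.

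The members spanned levels from 0 to 459 TPM, and together they summed to 2650 TPM in the vector library and 2532 TPM in the Slit1 library. The 45 transporters summed to 1783 and 1637 TPM, and the 12 enzymes and regulators to 867 and 895 TPM. In vector 10 members stood above 100 TPM, and in Slit1 7 did. Gpt2, Slc7a8 and Slc6a11 were the members above that level in vector but not in Slit1.

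The heteromeric exchangers pair a heavy chain, which carries the complex to the cell surface, with a light chain that moves the amino acids. Slc3a2 (CD98), the heavy chain of most of these pairs, was the most abundant member, at 459 TPM in the vector library and 402 TPM in the Slit1 library (7226 and 6572 estimated counts, ratio 0.874, interval 0.845 to 0.904). The other heavy chain, Slc3a1, known from kidney and gut, had 6.96 and 5.39 counts, and its annotated span overlaps Prepl.

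The light chains were split. Slc7a5 (LAT1), which exchanges large neutral amino acids such as leucine, measured 100.1 TPM in the vector library and 125 TPM in the Slit1 library (2951 and 3849 counts). Its ratio was 1.25 (interval 1.19 to 1.32). Slc7a8 (LAT2), a light chain of broader neutral specificity, measured 124 TPM in the vector library and 92.0 TPM in the Slit1 library (4347 and 3354 counts). It was thus lower by 1.35-fold (interval 1.29 to 1.41), while Slc7a5 was higher.

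Slc7a5 went from 37.9% to 49.2% of the summed light chain TPM, and Slc7a8 from 47.0% to 36.0%, so their order was the opposite in the 2 libraries. The ratio of Slc7a5 to Slc7a8 was 0.807 in vector and 1.36 in Slit1, a change of 1.69-fold (interval 1.58 to 1.81). A scale factor common to all genes of a library cancels in a ratio of this kind, while a correction for gene length does not. This and the other pairs were chosen after their values were seen. The ratio of Slc7a5 to the heavy chain Slc3a2 changed by 1.43-fold (interval 1.35 to 1.52).

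Among the scarcer light chains, Slc7a6, which works on cationic and neutral amino acids, measured 20.6 and 21.6 TPM, with an interval of the ratio that held 1 (0.943 to 1.17). Slc7a10 (Asc-1), a carrier of small neutral amino acids that include D-serine, measured 17.3 and 14.1 TPM (ratio 0.815, interval 0.681 to 0.975). Its annotated span overlaps Lrp3 (36.2 and 46.5 TPM), and reads from a shared stretch cannot be assigned where the handling of strand is not known. Slc7a7 rested on 25 and 28 counts. It was also the tested member whose deposited gene length differed most between the libraries, which gave a ratio of 1.22 in TPM but 1.11 in counts per total. A length difference of at least 1.1-fold was found in this 1 of 42 members and in 552 of all 13175 tested genes.

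The cationic carriers, which bring in arginine, lysine and ornithine, differed little. Slc7a3 measured 15.1 and 14.1 TPM, and Slc7a1, the widely expressed member, 10.9 and 10.3 TPM. Slc7a2 measured 6.10 and 4.98 TPM, and Slc7a4, whose transport function is unclear, 3.28 and 3 TPM. All 4 ratios were below 1, from 0.816 in Slc7a2 to 0.945 in Slc7a1, and all 4 intervals held 1. Slc7a1 was above 0 with the gene length trend removed (0.08).

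The neutral exchangers of the Slc1 family carry alanine, serine, cysteine and glutamine. Slc1a4 (ASCT1), a serine and alanine carrier, measured 58.5 TPM in the vector library and 41.5 TPM in the Slit1 library (985 and 727 counts). It was lower by 1.41-fold (interval 1.28 to 1.55), inside the 1.5-fold limit. Slc1a5 (ASCT2), the glutamine exchanger, measured 45.2 and 42.8 TPM (871 and 783 counts, interval of the ratio 0.858 to 1.04). Its deposited gene length differed between the libraries, and its ratio was 0.947 in TPM but 0.891 in counts per total. The 2 carriers thus stood near each other in Slit1 and apart in vector.

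The Slc38 family holds the sodium-coupled neutral carriers of system A and system N and several members of the lysosome and other inner membranes. Slc38a3 (SN1), a system N glutamine carrier known from astrocytes, was the highest at 262 TPM in the vector library and 228 TPM in the Slit1 library (5246 and 4735 counts, ratio 0.869, interval 0.835 to 0.904). Slc38a10 measured 70.5 and 71.2 TPM (2392 and 2485 counts, ratio 1.01, interval 0.954 to 1.07). The system A carriers Slc38a1 and Slc38a2, which adjoin each other on chromosome 7 among protein-coding genes, had similar ratios. Slc38a1 measured 65.3 and 56.5 TPM (ratio 0.864, interval 0.825 to 0.905).

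Slc38a2, the amino acid-regulated member, measured 48.4 and 43.5 TPM (ratio 0.899, interval 0.842 to 0.959). With the gene length trend removed both were nearer 0 (-0.05 and -0.03). The third gene in that row, Slc38a4, had 2 and 3 counts. The ratio of Slc38a3 to Slc38a1 changed by 1.01-fold (interval 0.946 to 1.07), within counting error. Slc38a10, the second most abundant in the family, differed from both: the interval of its ratio lay above theirs, and it took a larger share of the summed Slc38 TPM in Slit1.

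Of the members placed on lysosomes, Slc38a7, a glutamine and asparagine exporter, measured 27.0 and 30.2 TPM (ratio 1.12, interval 1.01 to 1.24). Slc38a9, an arginine sensor of the mTORC1 pathway, measured 13.8 and 10.6 TPM (529 and 443 counts) and was 1.30-fold lower (interval 1.14 to 1.48). Its ratio was 0.770 in TPM but 0.830 in counts per total. The difference of Slc38a9 was -0.35 in TPM, -0.25 with edgeR TMM factors and -0.23 with the gene length trend removed. Slc38a6, a further member of the family, measured 15.2 and 14.6 TPM, with an interval of the ratio that held 1 (0.831 to 1.11). Its annotated span overlaps Trmt5 (13.3 and 13.5 TPM). Slc38a7 and Slc38a9 thus went in different directions, and Slc38a9 differed most.

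The proton-coupled carriers Slc36a1 (6.89 and 6.71 TPM, 334 and 339 counts) and Slc36a4 (3.18 and 3.09 TPM, 140.0 and 152 counts) differed by less than counting error. Their ratios were 0.974 (interval 0.835 to 1.14) and 0.972 (interval 0.768 to 1.23). Slc43a2 (LAT4), a facilitator of branched-chain amino acids and phenylalanine, measured 20.2 TPM in the vector library and 25.8 TPM in the Slit1 library. Its counts were 1003 and 1362 and its ratio was 1.28 (interval 1.17 to 1.39). Slc43a3, which carries purine bases, measured 1.14 and 1.51 TPM from 22.5 and 32.9 counts (ratio 1.32, interval 0.740 to 2.32).

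Slc43a2 and Slc7a5, both carriers of branched-chain amino acids, were thus higher in Slit1, while Slc7a8 was lower. Slc43a1 (LAT3), a close relative of Slc43a2, was scarce at 0.37 and 0.58 TPM.

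**Figure D2:**
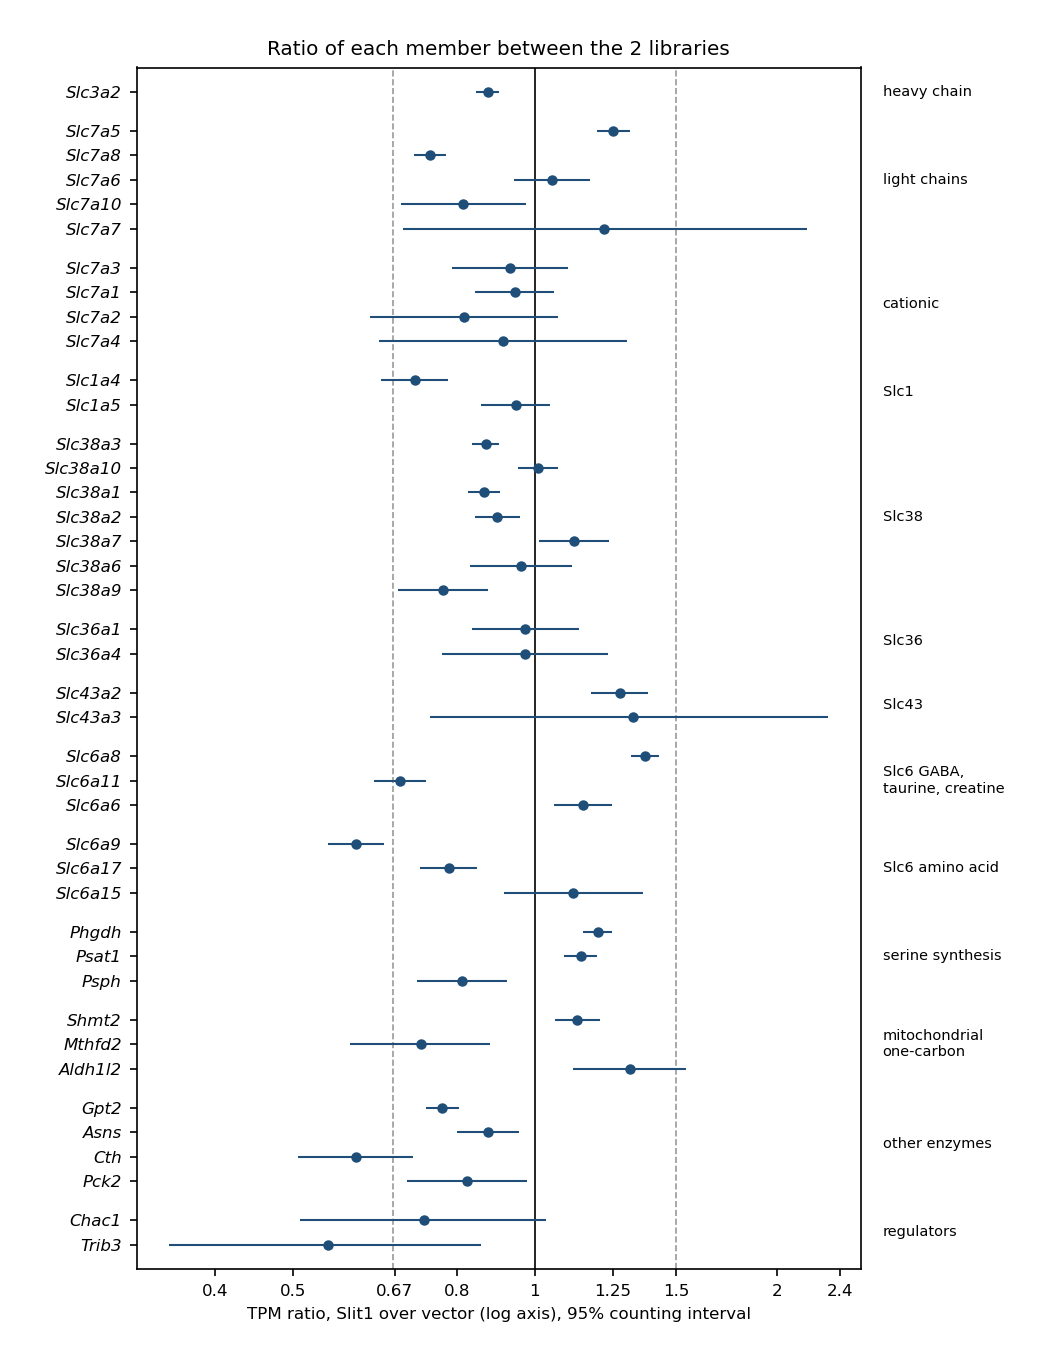
TPM ratio of Slit1 over vector (horizontal log axis) for 41 tested members, grouped by role, with 95% intervals that cover counting error only, from 1 library per group. Dashed lines mark 1.5-fold in each direction on the TPM ratio; Slc6a9, Cth and Trib3 lie beyond the lower line and no member beyond the upper line.

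In differences of log2(TPM + 1), the Slc6 family of sodium- and chloride-coupled carriers held both ends of the members' range. By TPM ratio, Trib3 (0.553) and Cth (0.599) were the lowest of the tested members. Slc6a8, the creatine carrier, measured 128 TPM in the vector library and 175 TPM in the Slit1 library (3879 and 5480.1 counts). It was the member with the largest positive difference (0.45), and its ratio was 1.37 (interval 1.32 to 1.43). Slc6a11 (GAT3), a GABA carrier known mainly from astrocytes, measured 105 TPM in the vector library and 71.4 TPM in the Slit1 library (1712 and 1211 counts). It was 1.47-fold lower (interval 1.37 to 1.59), just inside the limit.

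Slc6a6, the taurine carrier, measured 19.4 and 22.3 TPM (ratio 1.15, interval 1.06 to 1.25). The creatine carrier was 1.21 times as abundant as Slc6a11 in vector and 2.45 times in Slit1, a change of 2.02-fold (interval 1.85 to 2.20). The carriers of creatine and taurine were thus higher and Slc6a11 lower.

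Slc6a9 (GLYT1), the glycine carrier of glia, had the most negative difference of all members (-0.72). It measured 58.5 TPM in the vector library and 35.1 TPM in the Slit1 library (1582 and 991 counts), 1.67-fold lower (interval 1.54 to 1.81). Slc6a17, a vesicular carrier of neutral amino acids, measured 23.9 and 18.7 TPM (1307 and 1064 counts) and was 1.28-fold lower (interval 1.18 to 1.39). Slc6a15, a carrier of branched-chain amino acids and proline, measured 6.45 and 7.19 TPM (ratio 1.11, interval 0.917 to 1.36).

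Some of these carriers are known from astrocytes, whose markers went in both directions. Of the 8 tested, 3 were above 0 and 5 below in TPM, with a median of -0.14. By the 1.5-fold rule 2 were called lower and 0 higher, beside 4.84% and 3.74% of all genes, and 6 lay between. Slc1a2, the glutamate carrier of astrocytes, measured 215 and 94.1 TPM, and the connexin gene Gja1 506 and 296 TPM. Gfap measured 4694 and 6130 TPM, and the water channel gene Aqp4 389 and 462 TPM. The part of astrocytes in the values of Slc6a9, Slc6a11, Slc7a10 and Slc38a3 was not tested.

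The 15 members below 1 TPM did not exceed 0.85 TPM in either library. The highest were Slc38a8 (0.62 and 0.85 TPM), Slc43a1 (0.37 and 0.58 TPM) and Slc3a1 (0.36 and 0.27 TPM). Slc38a8 had 58.2 and 82.4 counts, but its annotated span overlaps Necab2 (13.4 and 16.4 TPM). The other 14 had at most 12 counts. Among them were the monoamine carriers Slc6a2 (3.99 and 0 counts) and Slc6a4 (2 and 0 counts), the neuronal glycine carrier Slc6a5 (0 and 1 count) and the glutamate carrier Slc1a6 (1 and 3 counts). Also there were Slc6a13, Slc6a16, Slc7a9, Slc7a12, Slc7a14, Slc7a15, Slc38a4 and Slc38a5. A count of 0 allows up to 3 counts, so no ratio is given for these.

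The serine synthesis enzymes were among the most abundant members, and they did not go together. Phgdh, the first and committed enzyme, measured 269 TPM in the vector library and 322 TPM in the Slit1 library (4197 and 5203 counts, ratio 1.20, interval 1.15 to 1.25). Psat1, the aminotransferase of the next step, measured 187 TPM in the vector library and 214 TPM in the Slit1 library (3242 and 3851 counts, ratio 1.14, interval 1.09 to 1.20). Psph, the phosphatase that releases serine, measured 50.5 and 41.0 TPM (523 and 437 counts) and was 1.23-fold lower (interval 1.08 to 1.40). The ratio of Phgdh to Psph went from 5.33 to 7.87, a change of 1.48-fold (interval 1.29 to 1.69).

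The mitochondrial enzymes that pass serine carbon to folate also differed in direction. Shmt2, which cleaves serine to glycine, measured 101 TPM in the vector library and 114 TPM in the Slit1 library (1729 and 2062 counts, ratio 1.13, interval 1.06 to 1.20). Mthfd2, which oxidises the carbon unit, measured 13.5 and 9.77 TPM (236 and 177 counts) and was 1.39-fold lower (interval 1.14 to 1.70). Aldh1l2, which turns formyl folate into carbon dioxide with formation of NADPH, measured 8.20 and 10.8 TPM (262 and 359 counts, ratio 1.31, interval 1.12 to 1.54). Aldh1l2 was thus scarcer than Mthfd2 in vector, at 0.606 of its level, and more abundant in Slit1, and their ratio changed by 1.82-fold (interval 1.42 to 2.34).

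The other amino acid and carbon enzymes were all lower in TPM. Cth, which makes cysteine from cystathionine, measured 25.4 TPM in the vector library and 15.2 TPM in the Slit1 library (380.0 and 238 counts). It was 1.67-fold lower (interval 1.42 to 1.97). Gpt2, the mitochondrial alanine aminotransferase, measured 128 TPM in the vector library and 98.2 TPM in the Slit1 library (4034 and 3205 counts) and was 1.30-fold lower (interval 1.24 to 1.37). Asns, the asparagine synthetase and a classical ATF4 target, measured 57.2 and 50 TPM (1069 and 964 counts). Its fold was 1.14 lower (interval 1.05 to 1.25). Pck2, the mitochondrial PEP carboxykinase, measured 15.9 and 13.1 TPM (ratio 0.823, interval 0.693 to 0.978).

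The 2 regulators, both strongly induced by ATF4 under stress, were scarce. Trib3, a pseudokinase, measured 4.94 TPM in the vector library and 2.73 TPM in the Slit1 library from 59 and 34 counts, 1.81-fold lower with a wide interval (1.17 to 2.85). In CPM, in FPKM and with edgeR TMM factors its difference was inside the limit (-0.57, -0.51 and -0.56), and the number of lower members was then 2. Chac1, which degrades glutathione, measured 5.93 and 4.32 TPM from 78.0 and 59.0 counts, and its interval held 1 (0.510 to 1.03).

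**Figure D3:**
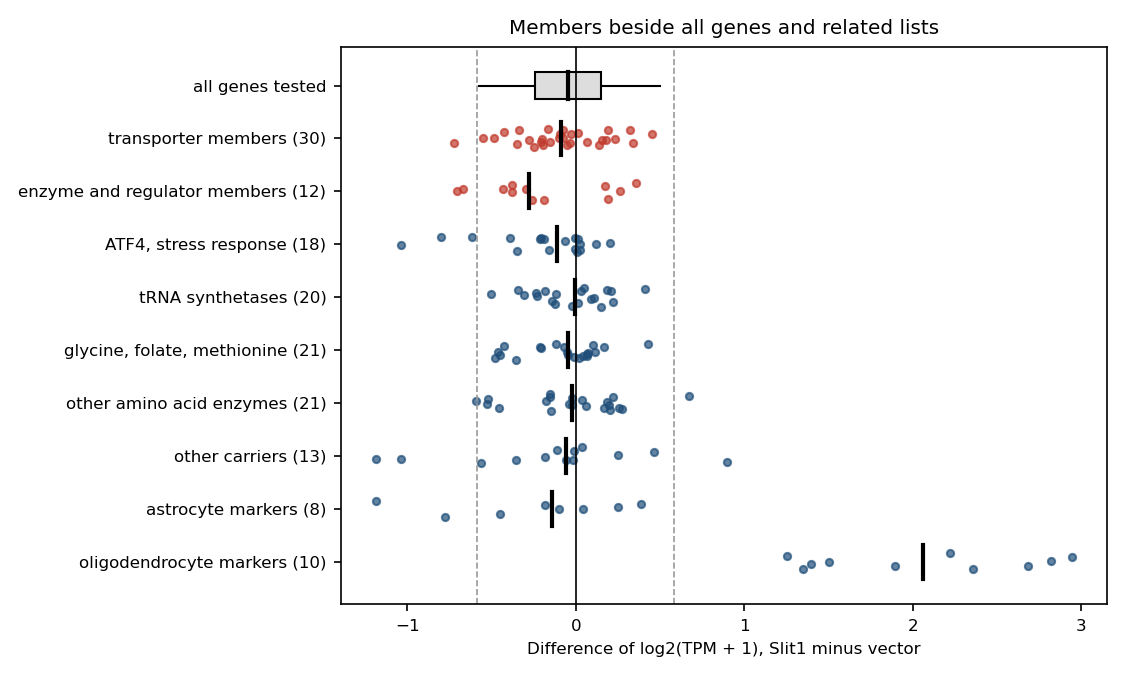
Difference of log2(TPM + 1), Slit1 minus vector (horizontal axis), for each tested member (red), and for tested genes of related lists and markers (blue), with the number of genes in brackets and a black bar at the median. The box for all genes spans the quartiles and its line the 5th to 95th percentile; dashed lines mark 1.5-fold. Members and related lists lie around 0, while the 10 oligodendrocyte markers lie between 1.25 and 2.94.

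Among 18 genes of ATF4 and the integrated stress response, 3 were called lower and 0 higher, beside 4.84% and 3.74% of all genes, and their median was -0.11 (0.02 in CPM). Atf4 itself measured 155 TPM in the vector library and 179 TPM in the Slit1 library (ratio 1.15, interval 1.08 to 1.23). Ddit3 (CHOP) measured 27.3 and 27.8 TPM (ratio 1.02, interval 0.831 to 1.25), and Atf5 82.0 and 70.8 TPM (ratio 0.863, interval 0.792 to 0.940). ATF4 is regulated mainly in translation, which RNA levels do not show. The 3 lower genes were Slc7a11, the cystine exchanger that pairs with Slc3a2 (44.8 and 21.3 TPM, 2.10-fold lower), Gdf15, a stress-induced secreted factor (66.3 and 37.6 TPM, 1.76-fold lower), and Fgf21, which rested on 10 and 5 counts. Without Fgf21 2 were called: it fell below the floor on low values in CPM, in FPKM and with edgeR TMM factors, and inside the limit after centring (-0.57). Cebpg, a partner of ATF4, measured 57.6 and 43.8 TPM (1.32-fold lower).

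The 20 cytosolic aminoacyl-tRNA synthetases, many of them ATF4 targets, had 0 genes called higher or lower, beside 3.74% and 4.84% of all genes. Their median was -0.01. Among the genes that differed most were Vars1 (70.8 and 94.5 TPM), Nars1 (178 and 140 TPM) and Hars1 (87.6 and 70.4 TPM). They did not share a direction.

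Of the genes of glycine cleavage, folate and methionine, 0 of 21 were called higher or lower, beside 3.74% and 4.84% of all genes. Their median was -0.05. Tyms, the thymidylate synthase, measured 37.7 and 26.7 TPM, and Mtr, the methionine synthase, 9.07 and 6.31 TPM. Mat2b measured 47.8 and 34.6 TPM. Sfxn1, the mitochondrial serine carrier, measured 185 TPM in the vector library and 137 TPM in the Slit1 library (4193 and 3355 counts, 1.35-fold lower, interval 1.29 to 1.41). Sfxn1 and Shmt2, which act on serine in the same organelle, thus differed in opposite directions.

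Of the 21 tested enzymes of glutamine, glutamate, proline, aspartate and branched-chain amino acids, 1 was called higher and 1 lower. Over all genes 3.74% were called higher and 4.84% lower. The median of the list was -0.02. The higher gene was Gls2, at 1.83 and 3.50 TPM (36 and 73.0 counts). The lower gene was Glul, the glutamine synthetase of astrocytes and oligodendrocytes, at 2879 TPM in the vector library and 1907 TPM in the Slit1 library (ratio 0.662). Its difference (-0.59) lay at the limit and within it in CPM (-0.54), FPKM (-0.55) and with edgeR TMM factors (-0.53). Bcat1, the cytosolic branched-chain aminotransferase, measured 213 and 148 TPM.

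Of the other amino acid carriers, 1 of 13 was called higher and 2 lower, beside 3.74% and 4.84% of all genes. Their median was -0.06. Slc15a4, a histidine and peptide carrier of lysosomes, measured 29.4 and 55.6 TPM (1.89-fold higher, interval 1.72 to 2.08). The lower genes were Slc1a2 and Slc7a11. Both were counted above, Slc1a2 among the astrocyte markers and Slc7a11 in the ATF4 list. Slc15a2, a peptide carrier, measured 296 and 200.1 TPM (1.48-fold lower).

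**Figure D4:**
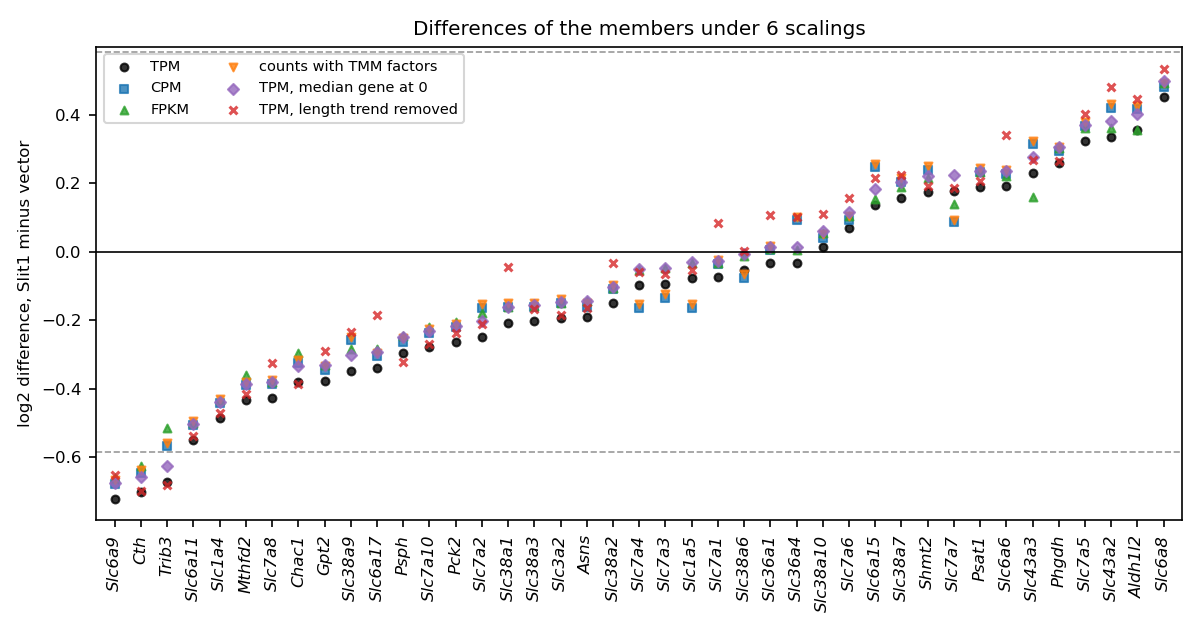
Difference between the libraries (vertical axis, log2 of value plus 1, Slit1 minus vector) for 41 tested members in order of their TPM difference, under 6 scalings; dashed lines mark 1.5-fold. Slc7a1, Slc38a6, Slc36a1 and Slc36a4 change sign between scalings, and the others drawn stay on 1 side of 0.

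The direction of most members did not depend on the scaling. Of 42, 14 were above 0 and 24 below 0 in TPM, CPM, FPKM, with edgeR TMM factors, after centring on the median gene and after removal of the gene length trend. The 4 others, Slc7a1, Slc38a6, Slc36a1 and Slc36a4, all had intervals that held 1. Of all 13175 tested genes, 5764 were above 0 and 7383 below in TPM, and 6587 on each side after centring. After centring 16 members were above 0 and 26 below. The share of all genes that kept 1 sign was not computed. These scalings use the same 2 libraries, so their agreement is no replicate check. Over all tested genes, the higher ones made up 43.6% of those called at 1.5-fold in TPM and 54.3% with the median gene set to 0. No member was called higher at 1.5-fold under any of these 6.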

How the data were processed

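RNA of 2 samples, 1 per group, was sequenced; a column kit was used to extract total RNA, per the labels' protocols. The authors deposited 1 table that holds, for each gene and library, FPKM, TPM and estimated counts that need not be whole, per the file headers. Per the submitters' processing notes, the build was mRatBN7.2. Aligner, counter, annotation, strand handling and filters: not given in the sources used here. Columns of other samples numbered 0. TPM was used as deposited with a pseudocount of 1. Clopper-Pearson 95% intervals of the ratio of 2 Poisson counts were computed from rounded estimated counts with scipy 1.17.1 and carried to the TPM ratio; intervals of ratios between 2 members used the normal approximation on the log scale. These intervals and the floor of 3 counts cover counting error only. The calculation was tested on simulated data. Alternatives were CPM, FPKM, edgeR 4.0.16 TMM factors, centring, pseudocounts of 0.1 and 5, floors of 0 and 5 TPM, lowess on gene length (span 0.3), at least 50 counts, and other fold limits. All 57 members matched RefSeq GRCr8 by gene number and symbol; that table gave overlaps and neighbours only, and promoter coordinates are GRCr8. A planned comparison of protein sequences was not made.

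Members, lists and role groups were chosen with earlier results of these data known. By rule the text names every member with a mean of at least 1 TPM, the 3 highest below it, with full values the called members and the 2 most abundant of each role group, Slit1, Atf4, Atf5, Ddit3 and Slc7a11, and the 4 genes of each related list that differed most. Scarce members, further values and overlapping genes were added after their values were seen. Of the genes this rule selects, 3 (1 member) are not reported here by name; they remain in the counts and medians.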

Additional observations from a re-analysis of the deposited data

How the results depend on the processing

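No paired analysis was possible because each group has 1 library, and for the same reason no library could be left out. The 1.5-fold count of higher members was 0 and of lower members 3. At 2-fold the number lower was 0, and at 1.25-fold, added after seeing the data, 4 members were higher and 11 lower. Of 34 alternative values for the members' counts and median, 31 stayed within 1.5 times the count or within the rank interval of the median (-0.25 to -0.03). That interval runs over members, which are not replicates, so it is a yardstick for the settings and no test. The median lay between -0.17 (floor of 5 TPM) and -0.06 (length trend removed) in the settings where it was taken. The number of lower members was 2 in CPM, in FPKM, with edgeR TMM factors, with a pseudocount of 5 and with a floor of 5 TPM, where Trib3 was lost. Of 486 values for role groups and related lists 41 moved. The regulators had 1 lower member in TPM and 0 under the same 5 settings. The glutamine and branched-chain list had 1 lower gene in TPM and 0 in CPM, in FPKM, with TMM factors, with centring and with the length trend removed. It had 1 higher gene in TPM and 0 in FPKM, with a pseudocount of 5 and with a floor of 5 TPM. The median of the ATF4 list was 0.02 in CPM and 0.03 with TMM factors. The 2 Slc36 carriers had a median of -0.03 in TPM and 0.06 with TMM factors. Depth limits Trib3, Chac1, Slc7a7, Slc43a3 and Slc7a4, whose intervals are wide.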
